A study of Mus musculus with 12 samples.

Results

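The genes described here are 9 transcription factors that lay out the secondary palate: Osr1, Osr2, Shox2, Barx1, Msx1, Msx2, Pax9, Tbx22 and Meox2. They were chosen by symbol, through their Ensembl mouse gene identifiers, and all 9 were found among the 53392 genes of the deposited tables. RNA was measured in 12 libraries of mouse embryos of the 129S4 strain background, 3 in each of 4 groups, in tissue from which the ectoderm had been digested with trypsin. The palatal shelf (PS), the outgrowth that elevates and fuses to form the roof of the mouth, was taken at E13.5 from wild-type Pdgfra+/+ embryos and from PdgfraPI3K/PI3K embryos, which carry on both copies a knock-in allele of the receptor PDGFRα that cannot bind the kinase PI3K. The maxillary process (MxP), the swelling from which the shelf grows, was taken at E11.5 from Srsf3fl/fl;Wnt1-Cre+/+ embryos, the controls without Cre, and from Srsf3fl/fl;Wnt1-Cre+/Tg embryos, called cKO here. Both maxillary groups therefore carry a floxed allele of the splicing factor Srsf3 on both copies, and the Wnt1-Cre transgene recombines it in the neural crest lineage, so tissue of other origin keeps the gene. Whether a library holds 1 embryo or several is not stated in the sources used here, and p-values measure only the spread between these libraries.

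Palatal shelf mesenchyme comes mainly from the cranial neural crest and is patterned along 2 axes before the shelves elevate. Shox2 and Msx1 are known for the anterior shelf, Barx1, Meox2 and Tbx22 for the posterior shelf, and Osr2, Osr1 and Pax9 for gradients between its medial and lateral sides. Loss of Osr2, Shox2, Msx1, Pax9 or Tbx22 is a known cause of cleft palate in the mouse, and these factors act with BMP, FGF, WNT and Hedgehog signals exchanged between mesenchyme and epithelium.

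All 9 are protein-coding genes, placed here on build GRCm38 by GENCODE M21. Chromosome 12 holds 3 of them on its plus strand, Osr1 (ENSMUSG00000048387.8) at 9570116 to 9581500, Meox2 (ENSMUSG00000036144.6) at 37108540 to 37179534 and Pax9 (ENSMUSG00000001497.18) at 56691767 to 56712822. Chromosome 13 holds Barx1 (ENSMUSG00000021381.4) at 48662998 to 48666507 on the plus strand and Msx2 (ENSMUSG00000021469.9) at 53466884 to 53473074 on the minus strand. Osr2 (ENSMUSG00000022330.5) at 35296098 to 35303305 is on chromosome 15 (plus strand), Shox2 (ENSMUSG00000027833.16) at 66971727 to 66981771 on chromosome 3 (minus strand) and Msx1 (ENSMUSG00000048450.10) at 37820485 to 37824583 on chromosome 5 (minus strand). Tbx22 (ENSMUSG00000031241.17) at 107667964 to 107688978 is on chromosome X (plus strand). The number of annotated transcripts runs from 1 for Barx1 and Meox2 to 5 for Osr2, Shox2 and Tbx22.

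The palatal shelf libraries held between 30509338 and 37406960 estimated counts and the maxillary libraries between 15932541 and 27887654. Srsf3 itself had 470.0, 407 and 416 TPM (a level scaled for transcript length and library depth) in the 3 controls, and 320.0, 441 and 407 TPM in the libraries labelled Srsf3 cKO, with a log2 fold change of 0.03 (95% interval from -0.29 to 0.35). The gene total thus did not mark the deletion, the labels were taken as given, and every direction drawn from the libraries labelled Srsf3 cKO rests on them. Pdgfra, whose altered allele is still transcribed, had 186, 200 and 243 TPM in the PI3K shelf and 140, 130 and 145 TPM in the wild type, without overlap, while its log2 fold change on counts was 0.02 (95% interval from -0.22 to 0.26). Its effective length, the estimated count over the TPM, differed between the genotypes by -0.58 on the log2 scale (SE 0.016, adjusted p = 0.002246, limma); the difference stayed between -0.59 and -0.57 with 1 library left out, with an adjusted p of 0.01778 to 0.06495 (limma). The ectoderm list of 11 marker genes summed to 683 to 891 TPM in the wild-type shelf, 375 to 906 TPM in the PI3K shelf, 3.53 to 7.89 TPM in the control process and 8.96 to 16.3 TPM in the process labelled cKO, with none of the markers listed at 0, so the shelf libraries still held epithelial RNA. Markers of facial mesenchyme were present in every group, with all 11 of 11 at a mean of at least 1 TPM. Because these are bulk samples, fewer cells of a type and less RNA per cell cannot be told apart.

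The largest differences among the 9 genes lay between the wild-type palatal shelf and the control maxillary process. Shox2, Meox2, Pax9 and Osr2 were higher in the shelf and Msx1 and Msx2 were lower, 6 of the 9 in all at a false discovery rate (FDR) under 0.05 (edgeR quasi-likelihood test, Benjamini-Hochberg over 15752 genes). Of all genes tested 50.6% passed, 27.1% higher and 23.4% lower, so a gene past the threshold was the common case in this comparison. For Meox2, 2 control libraries and 3 shelf libraries reached the minimum of the filter on low counts. The controls alone would thus not have carried Meox2 past the filter, which needed the shelf libraries. Without Meox2, 5 of the other 8 genes passed the FDR. Tissue, stage, the lane code in the library names and the floxed Srsf3 allele of the control process differ together here and cannot be told apart. The plot of levels by library shows all 9 genes in the 4 groups.

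**Figure D1:**
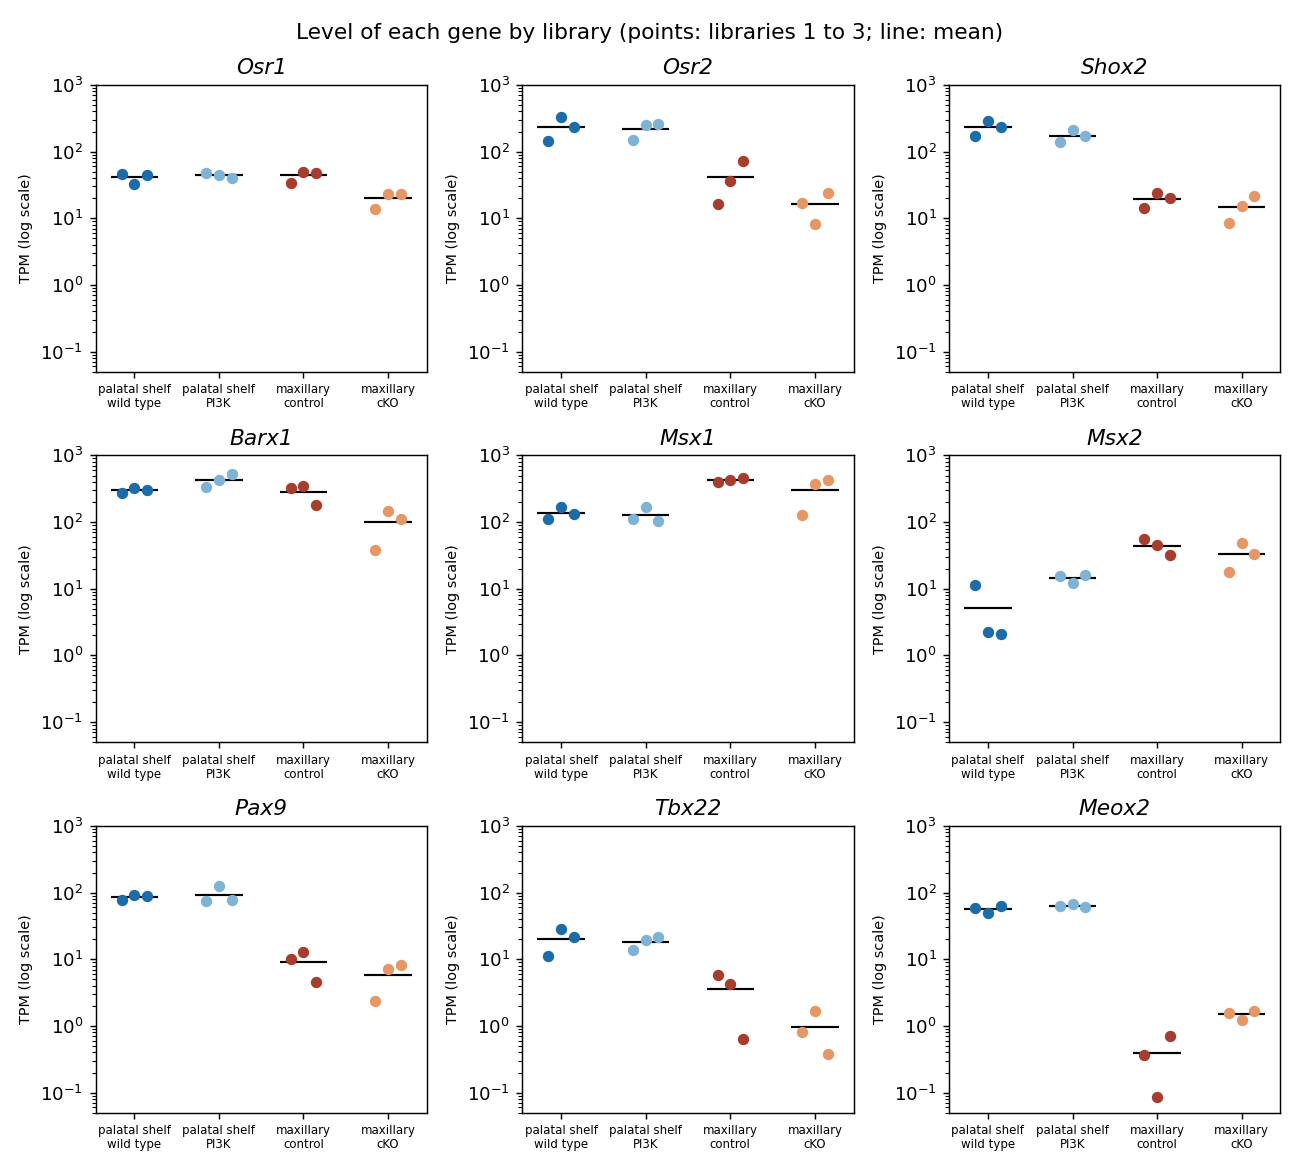
Level of each of the 9 genes in TPM (log scale) in the 12 libraries, with 1 point per library and a line at the group mean. Meox2 lies under 2 TPM in the 6 maxillary libraries and at 49.4 TPM or more in the 6 palatal shelf libraries, while Osr1 differs little between the wild-type shelf and the control process.

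The DNA just before the start of 3 of these genes is shown, because Shox2 and Meox2 had the largest rises in the shelf and Msx1 was an abundant gene that was lower there. The windows hold the 250 bases before the RefSeq start (build GRCm38.p6), read 5′ to 3′ on the strand of the gene: chr3:66981772-66982021 (minus strand) for Shox2, chr12:37108290-37108539 (plus strand) for Meox2 and chr5:37824586-37824835 (minus strand) for Msx1. Capitals mark matches on either strand to TATAAA (the TATA box), CCAAT (the CCAAT box) or GGGCGG (the GC box); 3 motifs of factor families, TAATTA and TAATTG for homeodomain proteins and TCACAC for T-box proteins, were searched as well, and TAATTG can overlap a reversed CCAAT.

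Shox2: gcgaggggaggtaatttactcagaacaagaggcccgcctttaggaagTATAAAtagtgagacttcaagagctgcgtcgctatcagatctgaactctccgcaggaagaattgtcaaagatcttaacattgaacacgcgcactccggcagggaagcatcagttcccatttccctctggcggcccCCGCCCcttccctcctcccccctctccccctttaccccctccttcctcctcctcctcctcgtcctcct

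Meox2: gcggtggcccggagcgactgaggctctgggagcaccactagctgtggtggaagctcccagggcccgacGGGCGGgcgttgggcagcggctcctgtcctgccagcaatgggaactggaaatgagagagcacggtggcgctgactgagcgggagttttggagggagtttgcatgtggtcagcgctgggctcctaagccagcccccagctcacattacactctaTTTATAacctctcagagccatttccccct

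Msx1: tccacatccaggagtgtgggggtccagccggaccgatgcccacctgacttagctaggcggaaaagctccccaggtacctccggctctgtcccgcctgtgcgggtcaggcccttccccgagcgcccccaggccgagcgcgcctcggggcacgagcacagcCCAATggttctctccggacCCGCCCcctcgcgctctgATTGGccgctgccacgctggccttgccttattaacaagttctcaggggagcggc

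In the Meox2 window a TATA box match began 29 bases before the start, and in the Shox2 window one began 203 bases before it. The Msx1 window held no TATAAA and had 2 CCAAT matches, at 91 and 54 bases before the start, with a GC box match between them at 72 bases. GC box matches stood at 182 bases in the Meox2 window and at 68 bases in the Shox2 window. Over all 32851 promoter windows of this length, 12.4% held the TATA box motif, 33.8% the CCAAT box and 32.7% the GC box. The homeodomain motifs were in 4.84% (TAATTA) and 7.17% (TAATTG) of windows and the T-box motif in 12.3%. None of these 3 was in the windows printed above, and of the 9 windows that RefSeq gave for 7 of the 9 genes, that of Msx2 held a homeodomain motif, TAATTA. The windows ranged widely in composition, from 85.6% GC with 8 GC box matches before Barx1 to 42.0% GC before one of the 3 Tbx22 starts, against a median of 52.4% over all windows.

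Osr2 and its paralog Osr1, zinc finger factors of the odd-skipped family, parted between the tissues. Osr2 had 146, 330.5 and 231 TPM in wild-type shelf libraries 1 to 3 and 16.4, 36.7 and 72.6 TPM in the control process. Every shelf library was above every control library, and the controls themselves spread widely. Its log2 difference, shelf minus process, was 2.35 (SE 0.49, 95% interval from 1.21 to 3.50, adjusted p = 0.006034, edgeR). Osr1 had 45.7, 32.6 and 44.9 TPM in the shelf and 33.9, 49.8 and 47.8 TPM in the process. These ranges overlapped almost fully, and the log2 difference was -0.21 (95% interval from -0.65 to 0.23, adjusted p = 0.3872, edgeR). The ratio of Osr2 to Osr1 within a library was 3.20 to 10.1 in the wild-type shelf and 0.484 to 1.52 in the control process. Osr2 was below Osr1 in 2 of the 3 control libraries and above it in all 6 shelf libraries.

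Of the anterior factors, Shox2, a short stature homeobox gene needed for growth of the anterior shelf, had 169.9, 292 and 238 TPM in the wild-type shelf and 14.2, 24.1 and 19.9 TPM in the control process. The lowest shelf library was far above the highest control library. The log2 difference was 3.55 (SE 0.25, 95% interval from 2.97 to 4.12, adjusted p = 8.251e-05, edgeR). Shox2 (chromosome 3, minus strand) overlaps the start of Rsrc1 on the opposite strand, and whether the counting used strand is not given in the sources used here; Rsrc1 had a mean of 51.4 TPM in the wild-type shelf and 45.6 TPM in the control process. Msx1, a homeobox repressor on the BMP pathway, went the other way, with 111, 166 and 131 TPM in the shelf and 393, 434 and 463 TPM in the process. It was the most abundant of the 9 genes in every control library, and its groups did not overlap. The log2 difference was -1.80 (SE 0.15, 95% interval from -2.14 to -1.46, adjusted p = 0.000151, edgeR). Msx2, its paralog and also a BMP target, had 11.2, 2.23 and 2.06 TPM in the shelf and 55.7, 44.8 and 32 TPM in the process, a log2 difference of -3.24 (SE 0.66, adjusted p = 0.005643, edgeR). Wild-type shelf library 1 was well above the other shelf libraries, and without it the log2 difference was -4.49.

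The posterior factors had 3 different courses. Meox2, a mesenchyme homeobox gene, had 58.6, 49.4 and 62.6 TPM in the wild-type shelf. In the control process it was listed at 0.368, 0.0855 and 0.712 TPM, from estimated counts of only 8, 2 and 20. The shelf level was thus high in all 3 libraries over a process that was close to its detection limit, with a log2 difference of 6.99 (SE 0.36, 95% interval from 6.15 to 7.83, adjusted p = 2.827e-05, edgeR), and the size of that difference was 5.40 with limma on log2(TPM + 1). Barx1, a homeobox gene of posterior shelf and molar mesenchyme, had 273, 323 and 305 TPM in the shelf and 328, 353 and 181 TPM in the process. It was abundant in both tissues, and the shelf values lay within the range of the controls. The log2 difference was -0.09 (95% interval from -0.68 to 0.51, adjusted p = 0.7973, edgeR). Control library 3 decided this value, since without it the difference was -0.39 with an adjusted p of 0.01271 (edgeR). Tbx22, a T-box repressor whose human counterpart is known for X-linked cleft palate, had 11.1, 28.1 and 21.3 TPM in the shelf and 5.77, 4.31 and 0.634 TPM in the process. The groups did not overlap, but the log2 difference of 1.80 (SE 0.67, 95% interval from 0.24 to 3.37) had an adjusted p of 0.05595 (edgeR) and passed under 6 of 13 alternatives.

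Pax9, a paired box factor needed for shelf growth and tooth formation, had 76.5, 93.0 and 89.9 TPM in the wild-type shelf and 10.0, 12.8 and 4.55 TPM in the control process. The shelf libraries were close to each other and all above the process, with a log2 difference of 3.11 (SE 0.33, 95% interval from 2.33 to 3.88, adjusted p = 0.0004428, edgeR). Gm15524, an antisense transcript annotated over the Pax9 start, had means of 9.34 TPM in the wild-type shelf and 0.0 TPM in the control process, and its reads and those of Pax9 cannot be told apart if strand was not used. Apart from Meox2, 6 of the other 8 genes had TPM ranges that did not overlap between these groups, against 57.1% of all genes tested. The 11 ectoderm markers all passed as higher in the shelf, with a median log2 difference of 6.79, and the part of epithelial RNA in these results was not tested. In the control process 2 of the 11 had a mean of at least 1 TPM, so most were near the floor there.

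The order of the 9 genes by level differed between the tissues. In the wild-type shelf the means ran from Barx1 (300.3 ± 25.3 TPM, SD, n = 3) through Osr2 (236 ± 92.1), Shox2 (233 ± 61.0), Msx1 (136 ± 27.5), Pax9 (86.5 ± 8.80), Meox2 (56.9 ± 6.76), Osr1 (41.1 ± 7.34) and Tbx22 (20.2 ± 8.56) to Msx2 (5.18 ± 5.26). Barx1 and Osr2, Osr2 and Shox2, and Tbx22 and Msx2 were neighbours whose ranges overlapped. In the control process Msx1 (430.0 ± 35.3 TPM) and Barx1 (288 ± 93.1 TPM) led, and the third, Msx2, had 44.2 ± 11.8 TPM. There Osr1, Osr2, Shox2, Pax9, Tbx22 and Meox2 followed Msx2 in this order of their means. In that order Msx1 and Barx1, Barx1 and Msx2, and Shox2 and Pax9 were neighbours whose ranges did not overlap, and the ranges of the other neighbours overlapped. The 9 genes together summed to 904.0 to 1316 TPM in the wild-type shelf and 822 to 960 TPM in the control process. Msx1 made up 45.2% to 56.3% of that sum in the control process and 11.6% to 12.6% in the wild-type shelf.

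Most of the 9 genes had values in the PI3K shelf that overlapped those of the wild type. At an FDR under 0.05 edgeR called 0 of the 9 genes, DESeq2 called 0, and 0.0% of all 16525 genes tested passed in edgeR and 0.0145% of 27503 in DESeq2. At an unadjusted p under 0.05 there was 1 of the 9, Barx1, against 2.14% of all genes. The TPM values did not overlap between genotypes for Barx1 and Msx2, both higher in the PI3K shelf, against 6.55% of all genes in either direction and 3.47% as higher. The median log2 difference of the 9 genes was 0.07 and that of all genes -0.01.

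Barx1 had 334, 422 and 522 TPM in the PI3K shelf, against 273, 323 and 305 TPM in the wild type. All 3 PI3K libraries were above all wild-type libraries, although the gap between the nearest ones was small. The log2 difference, PI3K minus wild type, was 0.50 (SE 0.15, 95% interval from 0.14 to 0.86), and the adjusted p was 0.9997 (edgeR). It kept its sign when each library was left out, at 0.36 to 0.66. Barx2, a paralog expressed at a lower level, had 7.26, 8.29 and 4.88 TPM in the PI3K shelf and 3.02, 2.49 and 2.62 TPM in the wild type, a log2 difference of 1.33 with an adjusted p of 0.9997 (edgeR).

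Msx2 had 15.6, 12.3 and 16 TPM in the PI3K shelf, against 11.2, 2.23 and 2.06 TPM in the wild type. Wild-type library 1 lay just below the PI3K libraries and the other 2 far below. The log2 difference was 1.49 (SE 0.64, 95% interval from -0.00 to 2.99, adjusted p = 0.9997, edgeR). Without wild-type library 1 it was 2.79, with an adjusted p of 0.05353 (edgeR), and without either of the other wild-type libraries it was 1.14 or 1.12. The bone and cartilage list, 10 marker genes, summed to 1820, 273 and 430 TPM in the wild-type libraries and 1060, 462 and 552 TPM in the PI3K libraries, so library 1 was the highest of each group on that list. The skeletal muscle list, also 10 genes, summed to 68.9, 5.05 and 9.65 TPM in the wild type and 281, 40.5 and 152 TPM with the PI3K allele. All 10 genes had a higher fitted level in the PI3K shelf, against 48.0% of all genes, with a median log2 difference of 2.45. The TPM of none stood without overlap, and the sums of wild-type libraries 2 and 3 were low for 10 genes. The neuron and glia list summed to 42.5, 37 and 32.5 TPM in the wild type and 62.0, 35.2 and 65.5 TPM in the PI3K shelf, with 8 of the 9 genes tested higher, 4 of them without overlap (3.47% of all genes), and Neurod1 listed at 0 in the PI3K libraries. The part of these lists in the Msx2 and Barx1 results was not tested. The ratio of Msx1 to Msx2 was 9.90, 74.2 and 63.6 in the wild type and 7.17, 13.6 and 6.55 in the PI3K shelf, with wild-type library 1 among the PI3K values.

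The anterior factor Shox2 had 137, 210.3 and 171 TPM in the PI3K shelf against 169.9, 292 and 238 TPM in the wild type. The groups overlapped, with a log2 difference of -0.43 (95% interval from -0.95 to 0.09, adjusted p = 0.9997, edgeR). The ratio of Shox2 to Barx1, an anterior over a posterior factor, was 0.622, 0.902 and 0.781 in the wild type and 0.412, 0.498 and 0.328 in the PI3K shelf. Those values did not overlap. Shox2 over Meox2, another anterior over a posterior factor, did overlap. It was 2.9, 5.9 and 3.8 in the wild type and 2.19, 3.08 and 2.84 in the PI3K shelf. The ratio of Shox2 to Barx1 was chosen with these values known, and both ratios are given without a test.

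**Figure D2:**
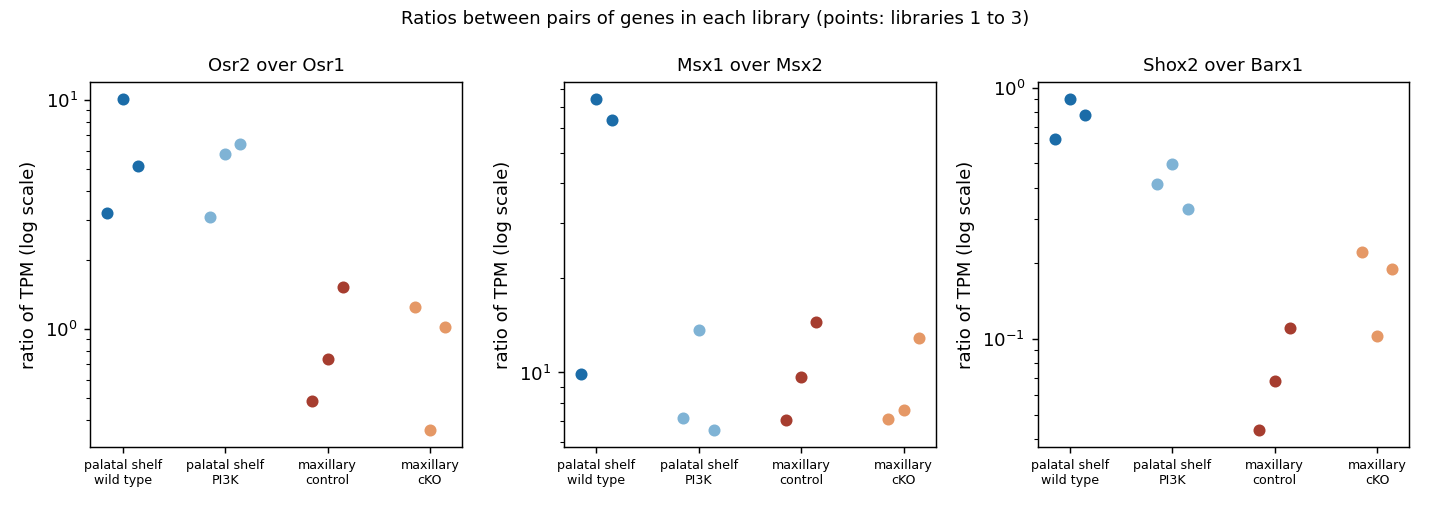
Ratio of TPM between 2 genes in each library (log scale), for Osr2 over Osr1, Msx1 over Msx2 and Shox2 over Barx1, with 1 point per library. Osr2 over Osr1 lies at 3.07 or more in the palatal shelf and at 1.52 or less in the maxillary process, and Shox2 over Barx1 is 0.622 to 0.902 in the wild-type shelf and 0.328 to 0.498 in the PI3K shelf.

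The other 6 genes had overlapping values in the 2 shelf genotypes. Osr1 had 48.5, 44.0 and 40.5 TPM in the PI3K shelf (log2 difference 0.11, 95% interval from -0.25 to 0.46) and Osr2 had 149, 254 and 258 TPM (-0.13, from -0.85 to 0.59). Msx1 had 112, 168 and 105 TPM (-0.08, from -0.60 to 0.44) and Pax9 had 73.9, 126 and 76.3 TPM (0.07, from -0.39 to 0.53). Tbx22 had 13.7, 19.2 and 21.4 TPM (-0.13, from -0.88 to 0.62). For Osr1, Osr2, Msx1, Pax9 and Tbx22 the sign changed when single libraries were left out. Meox2 had 62.6, 68.3 and 60.4 TPM, and its narrow interval, from -0.10 to 0.44 around 0.17, makes it the most tightly measured of the 9 in the shelf. A difference of the size seen between the tissues lies outside the interval of Osr2, Shox2, Msx1, Msx2, Pax9 and Meox2 in this comparison.

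**Figure D3:**
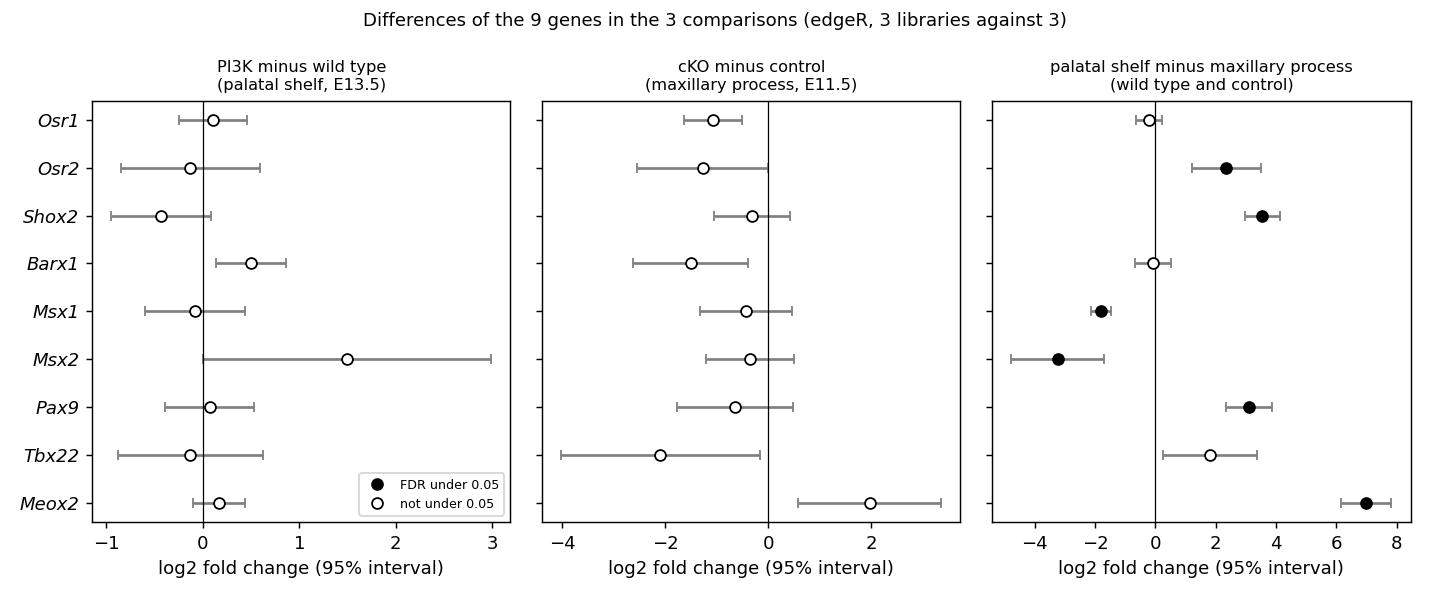
Log2 fold change of each gene with its 95% interval in the 3 comparisons (edgeR, 3 libraries against 3), filled where the FDR was under 0.05. The filled points are those of the 6 genes that passed between palatal shelf and maxillary process. Meox2 among them needed the shelf libraries to pass the filter on low counts. In the PI3K and cKO comparisons 0 passed. The intervals of Barx1 in the PI3K panel and of Osr1, Barx1, Tbx22 and Meox2 in the cKO panel leave out 0.

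In the maxillary process 8 of the 9 genes had a lower fitted level in the libraries labelled Srsf3 cKO than in the controls, and Meox2 had a higher one. Of all genes tested, 50.7% had a higher fitted level. Meox2 passed the filter on low counts through the libraries labelled cKO, since only 1 control library reached the minimum. It is therefore left out of the counts that follow. None of the other 8 genes passed an FDR of 0.05 with edgeR, where 0.0842% of all 14254 genes did; DESeq2 called 1, Osr1, against 2.41% of 15831 genes. At an unadjusted p under 0.05 there were 3 of the 8, Osr1, Barx1 and Tbx22, all lower, against 12.2% of all genes, 5.91% as lower and 6.34% as higher. The groups did not overlap in TPM for Osr1 and Barx1, both lower, against 17.5% of all genes, 11.2% as lower and 6.36% as higher. The median log2 difference of the 8 genes was -0.86, and that of all genes was 0.0.

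Osr1 had 13.6, 22.7 and 23.3 TPM in the libraries labelled cKO, against 33.9, 49.8 and 47.8 TPM in the controls. All 3 libraries labelled cKO were below all controls. The log2 difference, cKO minus control, was -1.07 (SE 0.24, 95% interval from -1.63 to -0.50), a fold of 2.09, and the adjusted p was 0.2114 (edgeR). The adjusted p was 0.03455 without the filter on low counts, 0.001301 with DESeq2 and 0.03597 with the replicate number as a block, and 0.05742 to 0.718 under the other alternatives, while the difference itself stayed between -1.22 and -0.86. Osr2 had 17.0, 8.19 and 23.9 TPM in the libraries labelled cKO, against 16.4, 36.7 and 72.6 TPM in the controls. These groups overlapped, and the log2 difference of -1.27 (95% interval from -2.54 to 0.00, adjusted p = 0.409, edgeR) became -0.64 without control library 3. The ratio of Osr2 to Osr1 was 1.25, 0.361 and 1.02 in the libraries labelled cKO, with libraries 1 and 3 within the range of the controls and library 2 below it.

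Barx1 had 38.0, 146 and 112 TPM in the libraries labelled cKO, against 328, 353 and 181 TPM in the controls. The highest library labelled cKO was still below the lowest control. The log2 difference was -1.50 (SE 0.48, 95% interval from -2.62 to -0.39, adjusted p = 0.3192, edgeR), and it stayed between -1.91 and -1.12 as libraries were left out. Tbx22, low in this tissue, had 0.799, 1.67 and 0.380 TPM against 5.77, 4.31 and 0.634 TPM in the controls. Its groups overlapped through control library 3, and the log2 difference was -2.09 (SE 0.83, 95% interval from -4.02 to -0.16, adjusted p = 0.3847, edgeR). Meox2 had 1.57, 1.24 and 1.70 TPM in the libraries labelled cKO, from estimated counts of 42, 47 and 42, against the 8, 2 and 20 counts of the controls. All 3 were above the controls and far below the shelf. Its log2 difference was 1.98 (SE 0.59, adjusted p = 0.3011, edgeR). In an edgeR fit over all 12 libraries the adjusted p was 0.04274.

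Msx1 had 126, 371 and 426 TPM in the libraries labelled cKO, and Msx2 had 17.7, 48.9 and 33.1 TPM. In both genes library 1 was well below the controls while libraries 2 and 3 were within or near their range, with log2 differences of -0.43 (95% interval from -1.32 to 0.46) for Msx1 and -0.35 (from -1.20 to 0.50) for Msx2. The ratio of Msx1 to Msx2 hardly moved, at 7.10, 7.60 and 12.9 in the libraries labelled cKO and 7.06, 9.68 and 14.5 in the controls. Shox2 had 8.39, 15.1 and 21.2 TPM (log2 difference -0.31, from -1.05 to 0.43) and Pax9 had 2.35, 7.14 and 8.06 TPM (-0.65, from -1.77 to 0.48), both overlapping the controls.

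Library 1 labelled cKO was the lowest of its group in 6 of the 9 genes and the highest in 0. Wild-type shelf library 1 was also the lowest of its group in 6 genes, and the highest in 2. The sum of the 9 genes was 226 TPM in library 1 labelled cKO and 623 and 649.6 TPM in libraries 2 and 3 labelled cKO, against 822 to 960 TPM in the controls. Without library 1 labelled cKO the log2 difference was -0.06 for Msx1, -0.05 for Msx2 and -0.03 for Shox2, but -0.86 for Osr1 and -1.12 for Barx1. The plot of refits with 1 library left out shows this spread.

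**Figure D4:**
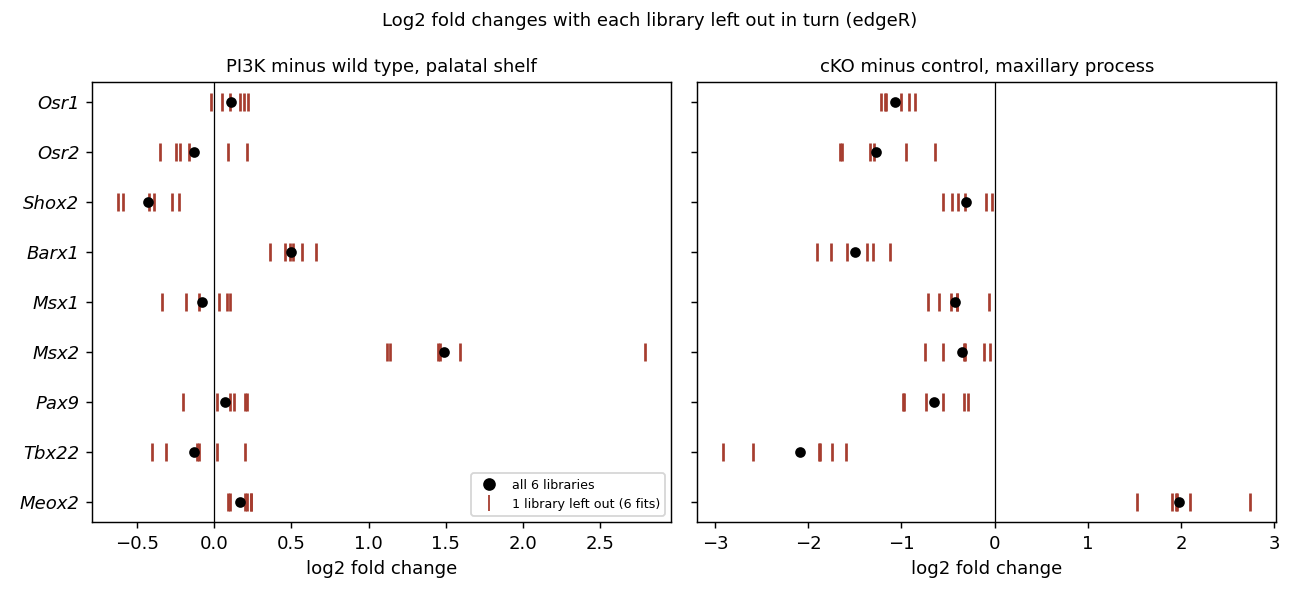
Log2 fold change of each gene with all 6 libraries (points) and with each library left out in turn (ticks), for the PI3K and the cKO comparison. Osr1 stays between -1.22 and -0.86 and Barx1 between -1.91 and -1.12 in the cKO panel, while the ticks of Shox2, Msx1 and Msx2 reach from -0.75 to -0.03.

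Other markers moved with the groups of the maxillary process. The endothelial list, 8 genes, summed to 170.0 to 180.0 TPM in the controls and, in the libraries labelled cKO, to 217 to 427 TPM, with 8 of 8 genes not overlapping and higher, against 6.36% of all genes. The periocular mesenchyme list, 7 genes, summed to 86.8 to 123 TPM in the controls and to 201 to 282 TPM in the cKO group. The red blood cell list, 9 genes, reached 40300 TPM in library 1 labelled cKO only. Libraries 2 and 3 labelled cKO had 14500 and 22400 TPM, within the 13700 to 23900 TPM of the controls. The facial mesenchyme list had 10 of 11 genes with a lower fitted level, where 50.7% of all genes had a higher one. Its sum overlapped between the groups, at 2880, 3470 and 4740 TPM in the controls and 2960, 2720 and 3070 TPM in the cKO group. The summed TPM of 3 general mesenchyme factors, Prrx1, Prrx2 and Twist1, was 1370, 1500 and 1630 in the controls and, in the cKO group, 735, 1150 and 1210. The part of these shifts in the levels of the 9 genes was not tested. The following scaling was chosen after seeing the data and is a description only, without the share of all genes beside it. As a percent of the summed Prrx1, Prrx2 and Twist1, Osr1 was 2.47, 3.32 and 2.94 in control libraries 1 to 3. The libraries labelled cKO had 1.85, 1.97 and 1.93, without overlap. Barx1 on this scale was 24, 23.6 and 11.1 in the controls, and the libraries labelled cKO had 5.17, 12.7 and 9.27, so that the groups overlapped through control library 3. Meox2, with its low counts, was higher on this scale without overlap. In the shelf, Barx1 on this scale was 28.3, 31.8 and 27.9 in the wild type and 33.8, 36.1 and 51.6 with the PI3K allele, without overlap, and Msx2 overlapped. Control library 3 had the highest Osr2 and the lowest Barx1, Msx2, Pax9 and Tbx22 of the controls. Control library 1 was likewise the lowest in 4 of the 9 genes. Control library 3 also held the most Pax1, a paralog of Pax9, with 113 TPM against 5.69 and 28.9 TPM, and the highest sum of the neuron and glia list, with 170.0 TPM against 52.2 and 81.4 TPM. Its forebrain neuroepithelium list, 8 genes, summed to 78.9 TPM against 14.8 and 15.5 TPM, while its periocular mesenchyme sum was the lowest of the controls.

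Signals and other factors of the palate were read from lists beside the 9 genes. Of 19 signalling genes, 13 were higher and 3 lower in the wild-type shelf than in the control process at an FDR under 0.05, against 27.1% and 23.4% of all genes, with a median log2 difference of 0.97 against 0.03 for all genes. Shh, the epithelial Hedgehog ligand, had 10.6, 15.5 and 16 TPM in the shelf and was listed at 0 in every control library. Shh thus passed the filter on low counts through the shelf alone. Fgf7 and Fgf18 had control means of 0.374 and 0.503 TPM, close to the floor. The 13 and the median include these genes, and the part of the filter in both was not tested. Inhba, an activin subunit, was higher by 3.58 on the log2 scale and Fgf18 by 4.67, while Bmp4, which acts upstream of the Msx genes, was lower by 1.24 and stood at 45.3 to 57.9 TPM against 106 to 196 TPM. In the libraries labelled cKO 0 of the 16 signalling genes tested passed the FDR with edgeR, and 5 were lower at an unadjusted p under 0.05, against 5.91% of all genes. Among them Wnt11 had 7.27, 12.2 and 12.3 TPM against 22.4, 35.2 and 31.4 TPM in the controls, and Fgf10, a mesenchymal FGF, had 5.42, 6.18 and 6.53 TPM against 9.50, 11 and 12.5 TPM. Of the same 19 genes in the PI3K shelf 0 passed the FDR and 2 had an unadjusted p under 0.05, against 2.14% of all genes, Wnt11 with a log2 difference of 0.65 and Wnt5a with -0.25.

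Of 8 genes that Osr2 is known to hold down in the shelf, 6 were higher in the wild-type shelf than in the control process at an FDR under 0.05 and 0 were lower, where 27.1% and 23.4% of all genes were; Osr2 itself was higher too. They were Sema3a, Sema3d and Sema3e, which encode secreted guidance cues, Bmp3, and the skeletal factors Sox6 and Sp7. Sema3d had 35.0, 41.0 and 45.4 TPM in the shelf against 1.27, 1.31 and 3.10 TPM. In the control process Sema3e had 0.164, 0.0414 and 0.241 TPM and Bmp3 had 0.125, 0.173 and 0.449 TPM. Both were near the floor there, so their place in the count leaned on the shelf level. In the PI3K shelf 0 of the 8 passed and 1, Sox6, had an unadjusted p under 0.05 (2.14% of all genes). In the libraries labelled cKO 0 of the 8 passed and 1 had an unadjusted p under 0.05 (12.2% of all genes), Sema3a, with a log2 difference of 0.49.

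Of 24 other factors of palate mesenchyme, 5 were higher and 12 lower in the shelf among 23 tested, against 27.1% and 23.4% of all genes, with a median log2 difference of -0.40 (0.03 for all genes). Sim2, at 102, 73.7 and 71.7 TPM in the shelf and 5.80, 2.52 and 0.144 TPM in the process, and Foxf2, at 139, 181 and 143 TPM against 27.1, 14.4 and 9.02 TPM, were among the 5. Tbx2, a T-box repressor, was among the 12, with 72.5, 138 and 112 TPM against 366, 398 and 426 TPM. In the libraries labelled cKO 0 of 23 passed, 7 were lower at an unadjusted p under 0.05 and 1 higher, against 5.91% and 6.34% of all genes, and the median was -0.40 (0.0 for all genes). The smallest adjusted p was that of Alx1, at 34.4, 42.5 and 47.4 TPM against 87.7 to 102 TPM in the controls (log2 difference -1.10, adjusted p = 0.06619, edgeR). Meis2, a homeobox cofactor, had 56.9, 83.5 and 85.3 TPM against 193, 198 and 209 TPM, a log2 difference of -1.36 (adjusted p = 0.09536, edgeR). In the PI3K shelf 0 of 24 passed and 3 were higher at an unadjusted p under 0.05, against 1.53% of all genes, Sim2 (log2 difference 0.68), Dlx2 (0.60) and Hand2 (2.24).

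The effective length of a gene, its estimated count over its TPM, moves when transcripts of different length change their mix. It could be tested for all 9 genes in the PI3K comparison, where 0 passed an FDR of 0.05 (limma) against 0.00775% of all genes, which is Pdgfra alone. For 7 genes it could be tested in the cKO comparison, where 0 passed against 0.00909%. Between wild-type shelf and control process 1 of 7 passed against 9.09%. That was Shox2, which has 5 annotated transcripts of 414 to 3079 bases, with centred log2 lengths of 0.085, 0.078 and 0.060 in the shelf and -0.048, -0.062 and -0.075 in the process. The shift was 0.135 (SE 0.013, adjusted p = 0.02224, limma), and it passed in 2 of 7 alternatives. Barx1, with 1 annotated transcript, shifted by 0.039 (adjusted p = 0.07253, limma), which shows how far a gene without a choice of transcript moved. With the count minimum lowered from 50 to 20, Tbx22 (5 annotated transcripts) could be tested and had a shorter effective length in the shelf, at -0.253, -0.258 and -0.312 against 0.179, 0.281 and 0.226 in the process, a shift of -0.511 (SE 0.031, adjusted p = 0.01306, limma). The counts behind the Tbx22 control values were 157, 136 and 23. The fit at the minimum of 20 was centred on a different set of genes from the printed Tbx22 values, which therefore do not give that shift exactly.

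Within groups, the 9 genes did not vary as a block. Over the 12 libraries, deviations from the group mean on the log2 scale had Pearson correlations of 0.87 between Shox2 and Msx1, 0.85 between Barx1 and Pax9 and -0.75 between Tbx22 and Meox2. These are descriptions of libraries that share depth and dissection, and -0.03 between Osr1 and Meox2 shows the range. By the same correlation over the 12 libraries, the likeness to single members among 11087 protein-coding genes was highest for Rab18 with Osr1 (0.968), Pcdhgb6 with Osr2 (0.962), Mapkap1 with Shox2 (0.974), Bckdhb with Barx1 (0.970), Polrmt with Msx1 (0.967), Sec22b with Msx2 (0.952), Ap2a1 with Pax9 (0.968), Trp53 with Tbx22 (0.979) and Arrdc1 with Meox2 (0.936). Each is the top of 11087 genes over only 12 libraries, where high values arise without any link, and none was tested. Those of Tbx22 and Meox2 also rest on low maxillary counts.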

How the data were processed

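Per the submitters' processing notes, STAR 2.7.0, Salmon 1.1.0, DESeq2 1.28.1 and build mm10 were used, in an order and with settings not given in the sources used here. The authors deposited estimated counts per gene and TPM per gene, the latter scaled for transcript length and depth, in 4 tables of 53392 versioned Ensembl identifiers with 0 columns lacking a sample. Symbols came from GENCODE M21 (GRCm38), which matched 53355 identifiers, and promoters from RefSeq (GRCm38.p6).

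Differences were tested with edgeR 4.0.16 (R 4.3.3) on the estimated counts, rounded to integers (quasi-likelihood F-test, TMM, default filter on low counts, Benjamini-Hochberg over all genes tested). Each comparison was fitted on its own 6 libraries with the group as the only term. The shelf and process tables were joined by identifier. The effective length was the log2 of estimated count over TPM, centred on the median gene of each library and tested with limma 3.58.1 on genes with at least 50 counts in all 6 libraries. Levels given in TPM are the deposited values.

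The 9 genes and the lists were chosen with earlier results of these data known. The rule for naming covered the 9 genes, list members a result turns on, genes overlapping the 9, and the genes most correlated with each. Neighbouring levels were called apart only where their ranges did not overlap. Alternatives were RLE size factors, no filter, DESeq2 1.42.0, 1 fit over all 12 libraries, the replicate number as a block, limma on log2(TPM + 1) and log2(TPM + 0.1), a count minimum of 20 for effective length and leaving out each library. The percent of 3 mesenchyme factors was added after seeing the data. On simulated counts with 200 changed genes, edgeR recovered 58% of 2-fold and 90% of 4-fold changes in the shelf comparison (16525 genes), 57% and 88% in the process comparison (14254 genes), and 68% and 89% between tissues (15752 genes). In that order, 5 of 153, 7 of 152 and 13 of 170 calls were false. The changed genes were not drawn from the lowest levels, and all other genes had the same level in both groups. These rates may therefore not hold for the real libraries.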

Additional observations from a re-analysis of the deposited data

How the results depend on the processing

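Over 13 alternatives per gene, the direction of every one of the 9 genes held in the cKO comparison, and that of all but Barx1 held between the tissues. Barx1 turned to 0.12 with limma on log2(TPM + 1) and log2(TPM + 0.1), to 0.02 without control process library 1 and to 0.08 without library 2, within a leave-one-out range of -0.39 to 0.08. In the PI3K comparison the sign turned without wild-type library 2 for Osr1 (-0.02), Osr2 (0.21), Msx1 (0.10) and Tbx22 (0.20), without PI3K library 1 for Osr2 (0.09), Msx1 (0.03) and Tbx22 (0.02), without PI3K library 2 for Pax9 (-0.20) and without PI3K library 3 for Msx1 (0.08). The leave-one-out ranges were -0.02 to 0.22 for Osr1, -0.35 to 0.21 for Osr2, -0.34 to 0.10 for Msx1, -0.20 to 0.21 for Pax9 and -0.40 to 0.20 for Tbx22. The cause was not tested. Between the tissues the same 6 genes passed the FDR in every alternative, Tbx22 joined them in 6 of 13 and Barx1 in 1. Meox2 among the 6 needed the shelf libraries to pass the filter on low counts in the main fit. Among the 9 genes the count past the FDR in the cKO comparison rose from 0 to 1 without the filter, with DESeq2 and with the replicate block (Osr1 each time). In the fit over 12 libraries the gene past the FDR was Meox2, with control counts of 8, 2 and 20. Because of the filter Meox2 is left out of the cKO counts above, and this call adds no support.

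Counts of all genes past the FDR moved more. In the cKO comparison 12 genes became 143 without the filter, 382 with DESeq2, 105 in the fit over 12 libraries, 7 with limma on log2(TPM + 1) and 2 to 29 with 1 library left out. DESeq2 called 4 genes in the PI3K comparison, where edgeR called 0. For effective length, 1 gene in the PI3K comparison became 0 to 1 with 1 library left out, and 1 gene in the cKO comparison became 2 at a count minimum of 20 and 0 to 5 with 1 library left out. Between the tissues 1008 genes became 563 at the minimum of 20 and 0 to 587 with 1 library left out, and among the 9 genes the count of 1 became 2 at that minimum and 0 to 1 with 1 library left out. The smaller number of libraries is part of each leave-one-out fit.

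The replicate number as a block gave 0, 1 and 6 of the 9 genes past the FDR in the PI3K, cKO and tissue comparisons, and 40 of all genes in the cKO comparison. Deviations of libraries with the same number correlated at 0.551, 0.206 and -0.237 in the PI3K comparison and at 0.094, 0.121 and 0.252 in the cKO comparison. Between libraries of unlike number the values ran from -0.623 to 0.482 and from -0.273 to 0.152. Whether the number marks paired libraries is not stated in the sources used here and was not tested. Depth limits Meox2 and Tbx22 in the maxillary process, where counts were 2 to 72 for all but 2 of their 12 values.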
